A study of Mus musculus with 300 samples.

Results

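The collagen genes are the 42 genes on the array whose symbol has the form Col, a number, the letter a and a number, out of 18193 genes with at least 1 probe set that named no other gene. Membership was set by symbol alone, under a rule chosen with earlier results of these data known. Where a gene had several probe sets, the one brightest on average across the 300 arrays stood for it. Of the 42, 27 have more than 1 probe set and 15 have 1. By the structure of the proteins they divide into 11 fibrillar chains, 6 chains of the type IV network, 2 multiplexins (Col15a1 and Col18a1), 5 beaded filament chains, 3 other network-forming chains, 9 fibril-associated chains (FACIT), 4 transmembrane collagens, Col7a1 of the anchoring fibrils and Col26a1. Col28a1 and Col6a6, which the RefSeq gene table also lists, have no probe set of their own in these data and were not analysed here.

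Liver, heart, kidney and skeletal muscle came from the same 75 mice, each profiled on a whole-genome expression array. The mice received vehicle, WY14643, GW501516 or rosiglitazone by mouth, each compound at 10 mg/kg, for 4, 8 or 15 days. Each tissue has 5 treated mice per compound and day and 10 vehicle mice per day, hence 15 treated mice per compound and 30 vehicle mice over the 3 days. WY14643 is a ligand of the nuclear receptor PPAR-alpha, GW501516 of PPAR-delta and rosiglitazone of PPAR-gamma. The labels give no genotype, strain, age or sex. The description of the series spells the first compound WY16453, whereas the sample labels spell it WY14643, and the latter is used here.

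Collagens are secreted proteins whose chains wind into triple helices. Fibrillar collagens (types I, II, III, V, XI, XXIV and XXVII) are cleaved outside the cell and assemble into the cross-linked fibrils that give tissue its tensile strength. Type IV collagen forms the sheet-like network of basement membranes, the layer beneath epithelia and endothelia and around muscle fibres, to which the multiplexins XV and XVIII attach. In healthy liver, heart, kidney and muscle most collagen is made by fibroblasts, stellate and mural cells and endothelial cells, and the PPARs are ligand-activated transcription factors best known for genes of fatty acid use and storage.

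Values are log2 probe set intensities, and a difference of 1 is a 2-fold change. Own-tissue markers were high throughout, with mean levels of 14.20 to 14.33 for hepatocyte genes in liver, 14.58 to 14.73 for cardiomyocyte genes in heart, 10.89 to 11.72 for tubule genes in kidney and 12.91 to 13.46 for myofibre genes in skeletal muscle. Markers of other tissues varied between arrays: adipocyte markers ranged over 5.47 to 11.83 in heart and 8.00 to 11.97 in skeletal muscle, and hepatocyte markers over 6.16 to 12.02 in heart and 3.79 to 11.64 in skeletal muscle. All 27 calls described below were kept with these means as covariates, the adipocyte mean alone in liver and both means in the other tissues. The liver calls were not adjusted for hepatocyte markers. In 11 arrays the deviations from the group mean, taken over all genes, had an SD above 1.5 times that of the tissue's median array. The most extreme were 1 kidney array of GW501516 on day 8 (3.95 times the median) and 1 heart array of rosiglitazone on day 4 (2.90 times). 1 mouse given WY14643 for 4 days stood apart in all 4 tissues. Without these 11 arrays the 27 calls were kept and 41 were made, 38 of them lower than vehicle. Fewer cells of a type and less RNA per cell cannot be told apart in such bulk samples.

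Few collagen genes changed, and those that did were nearly all lower in treated mice. Over 12 comparisons (4 tissues by 3 compounds, each the mean of the 3 same-day differences from vehicle) 27 of 504 collagen tests had a limma adjusted p under 0.05, of which 26 were lower (2.93% of all tests were called lower) and 1 was higher. The share called, 5.36%, lay near the 5.59% of all genes tested, so the number of changes does not set the collagens apart. Of the calls over all genes, 52.4% were lower, and the difference in direction was not tested. The 27 calls fell on 14 genes. Rosiglitazone accounted for 16, GW501516 for 8 and WY14643 for 3, against shares of all genes of 6.72%, 6.44% and 3.63%. Col5a3 was called 5 times, Col18a1 4 times, Col27a1 and Col4a1 3 times each, Col15a1 and Col1a1 2 times each, and Col3a1, Col4a2, Col4a3, Col4a4, Col5a1, Col6a1, Col8a1 and Col19a1 once. Other probe sets of the same gene, 27 of them, were at hand for 23 of the 27 calls: 23 had the same sign, 9 were called in the same direction, 0 in the opposite one, and 18 were not called. The estimates of the other 28 genes ran from -0.61 to 0.42, and the lowest adjusted p among them was 0.0514 (Col6a2). Many collagens were dim: 24 of the 42 in liver, 23 in heart, 22 in kidney and 14 in skeletal muscle lay under the 40th percentile of all genes. The 3 compounds of a tissue share the vehicle arrays, so their results are not independent of each other.

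**Figure D1:**
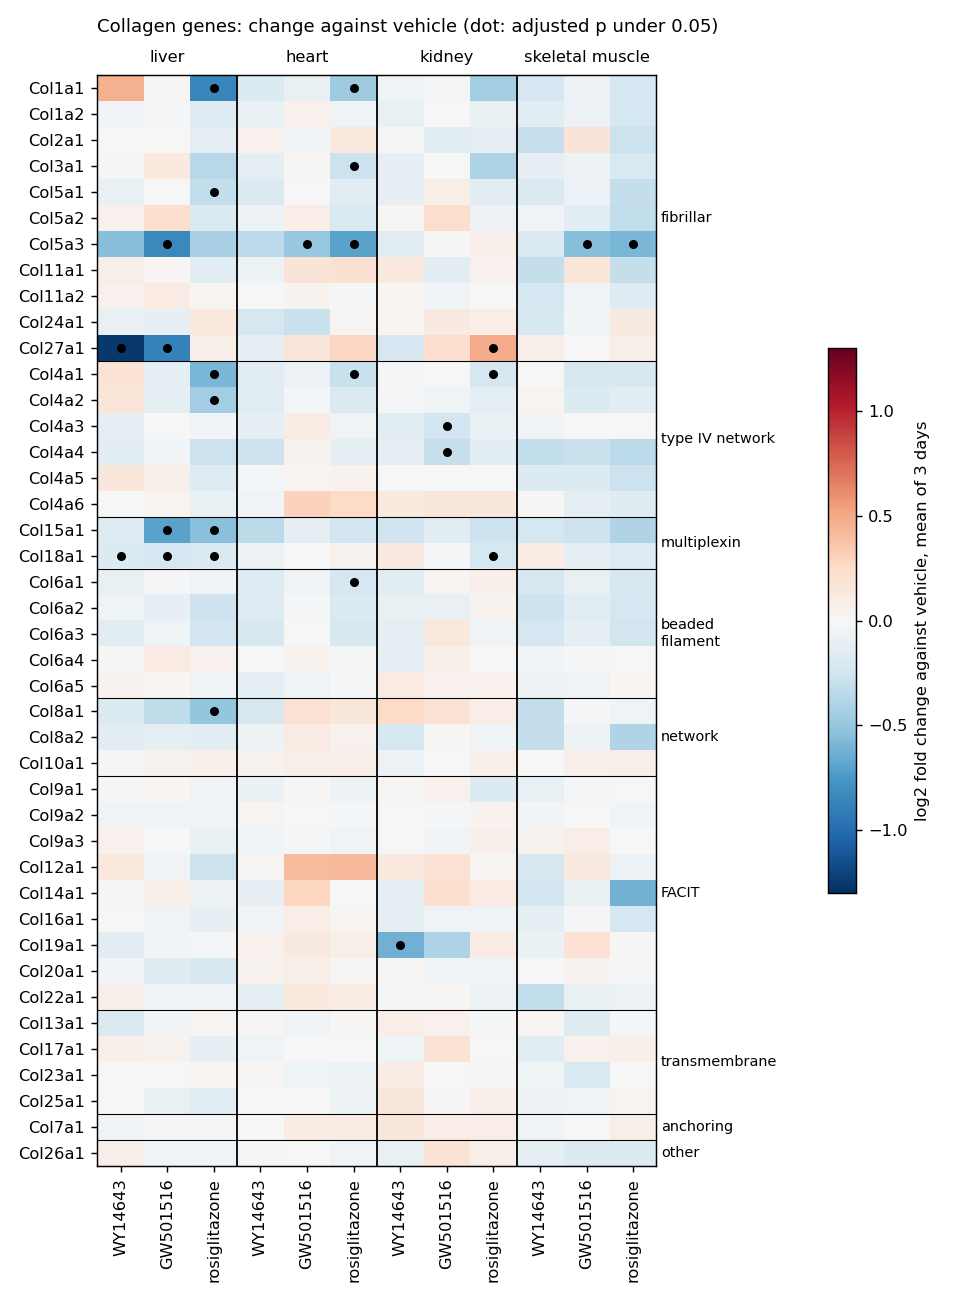
Log2 fold change against same-day vehicle, mean of 3 days, for the 42 collagen genes (rows, grouped by class) in 4 tissues and 3 compounds (columns). Blue is lower and red higher in treated mice, and a dot marks an adjusted p under 0.05. The 27 dots lie on 14 genes, and the sole dot on a red cell is Col27a1 in kidney with rosiglitazone.

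Col27a1, Col5a3 and Col15a1 had the largest called changes among the genes whose upstream sequence was at hand. The 250 bases before 1 RefSeq start site of each are printed because PPARs bind, with RXR, to direct repeats of AGGTCA with 1 base between. The RefSeq span of each of these genes begins further upstream than the site used. Capitals mark matches on either strand to the repeat unit AGGTCA, to the NF-Y box (CCAAT), to the GC box (GGGCGG) or to an E-box that clock proteins bind (CACGTG).
Col27a1 (GRCm38.p6, chr4:63215162-63215411, plus strand): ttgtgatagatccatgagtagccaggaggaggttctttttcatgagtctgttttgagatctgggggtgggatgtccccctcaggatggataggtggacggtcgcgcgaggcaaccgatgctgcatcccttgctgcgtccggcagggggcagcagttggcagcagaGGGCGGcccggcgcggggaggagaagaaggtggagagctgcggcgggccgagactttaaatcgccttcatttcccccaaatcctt
Col5a3 (GRCm38.p6, chr9:20815068-20815317, minus strand): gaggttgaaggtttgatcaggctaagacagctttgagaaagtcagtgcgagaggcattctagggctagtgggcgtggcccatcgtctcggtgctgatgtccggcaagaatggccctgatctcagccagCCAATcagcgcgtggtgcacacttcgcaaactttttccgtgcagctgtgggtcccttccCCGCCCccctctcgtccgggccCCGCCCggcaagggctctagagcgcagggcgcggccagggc
Col15a1 (GRCm38.p6, chr4:47207762-47208011, plus strand): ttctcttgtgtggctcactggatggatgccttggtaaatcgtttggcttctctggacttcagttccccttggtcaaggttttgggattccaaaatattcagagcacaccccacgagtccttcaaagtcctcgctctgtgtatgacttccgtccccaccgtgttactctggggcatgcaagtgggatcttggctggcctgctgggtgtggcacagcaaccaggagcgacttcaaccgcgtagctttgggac
Col27a1 has 1 GGGCGG, Col5a3 has 1 CCAAT and 2 GGGCGG, and Col15a1 holds none of these letters. A window was at hand for 33 of the 42 genes, with 36 windows in all. AGGTCA occurred in 8 of the 36 collagen windows and in 14.0% of 32851 RefSeq windows. CCAAT occurred in 13 and 33.8%, GGGCGG in 21 and 32.7%, and CACGTG in 0 and 6.02%. The exact direct repeat of AGGTCA occurred in 0 of the 36 and in 0.0335% of all windows. No match says only that these letters are not in this stretch.

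Col27a1, a fibrillar collagen best known from cartilage, had the largest change of any collagen gene in the mean over days. In liver its vehicle arrays ranged from 9.92 to 10.90 on day 4 (median 10.43), from 9.83 to 10.88 on day 8 (median 10.64) and from 9.99 to 11.09 on day 15 (median 10.64). WY14643 arrays read 8.43, 8.63, 8.93, 9.09 and 9.92 on day 4, then 8.95, 8.95, 8.97, 9.53 and 10.30 on day 8, and 8.74, 8.83, 9.58, 9.93 and 9.98 on day 15. All 5 treated arrays lay below every vehicle array on days 4 and 15, and 4 of 5 did so on day 8. The GW501516 arrays read 9.19, 9.72, 9.82, 9.92 and 10.20 on day 4, then 9.11, 9.46, 9.67, 9.86 and 10.02 on day 8, and 8.88, 9.21, 9.62, 9.67 and 10.02 on day 15. Here 4, 3 and 4 of the 5 arrays lay below every vehicle array on days 4, 8 and 15. With rosiglitazone the arrays stayed within 10.07 to 10.95 and overlapped vehicle on all 3 days.

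Averaged over days, liver Col27a1 fell by 1.25 log2 units with WY14643 (SE 0.118, limma adjusted p 2.67e-13, to 41.9% of vehicle) and by 0.88 with GW501516 (SE 0.118, adjusted p 3.49e-08, to 54.3%). Every one of the 15 treated mice of each compound lay below its same-day vehicle mean. The difference with rosiglitazone was 0.07 (adjusted p 0.76). WY14643 lay 1.33 log2 below rosiglitazone (95% interval -1.60 to -1.05, adjusted p over the 3 compound pairs 2.72e-11), and GW501516 lay 0.95 below it (adjusted p over the pairs 4.39e-07). The second Col27a1 probe set gave -1.08 (adjusted p 2.75e-12) and -0.72 (5.05e-07).

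In kidney Col27a1 moved the other way with rosiglitazone. Vehicle arrays ranged over 9.11 to 9.75 on day 4 (median 9.54), 8.69 to 9.34 on day 8 (median 9.12) and 8.89 to 9.77 on day 15 (median 9.40). Rosiglitazone arrays read 9.78, 9.81, 9.82, 9.96 and 10.07 on day 4, 9.54, 9.65, 9.72, 9.86 and 10.10 on day 8, and 9.66, 9.73, 9.73, 9.89 and 9.90 on day 15. All 5 exceeded every vehicle array on days 4 and 8 and 2 of 5 did on day 15. The mean rise was 0.48 log2 (SE 0.0836, adjusted p 0.000118, 139.8% of vehicle), seen in 15 of 15 mice, and the second probe set rose by 0.38 (adjusted p 0.00154). This was the sole higher call among the 27. With 2 components of 17 circadian clock genes as covariates it was 0.08 (adjusted p 0.796). Kidney Col27a1 was 0.70 lower with WY14643 than with rosiglitazone (adjusted p over the pairs 7.6e-07) and 0.43 lower with WY14643 than with GW501516 (0.00641), while against vehicle WY14643 gave -0.22 (adjusted p 0.249) and GW501516 gave 0.22 (0.107).

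The response of Col27a1 differed between tissues when the same mice were compared. WY14643 lowered it more in liver than in heart (difference -1.14), kidney (-1.04) or skeletal muscle (-1.32), and GW501516 did so by -1.04, -1.10 and -0.89. With rosiglitazone the response in liver minus that in kidney was -0.41. All 7 differences passed the test. Tests of Col27a1 in heart and skeletal muscle against vehicle gave -0.11 to 0.26, none with an adjusted p under 0.05.

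**Figure D2:**
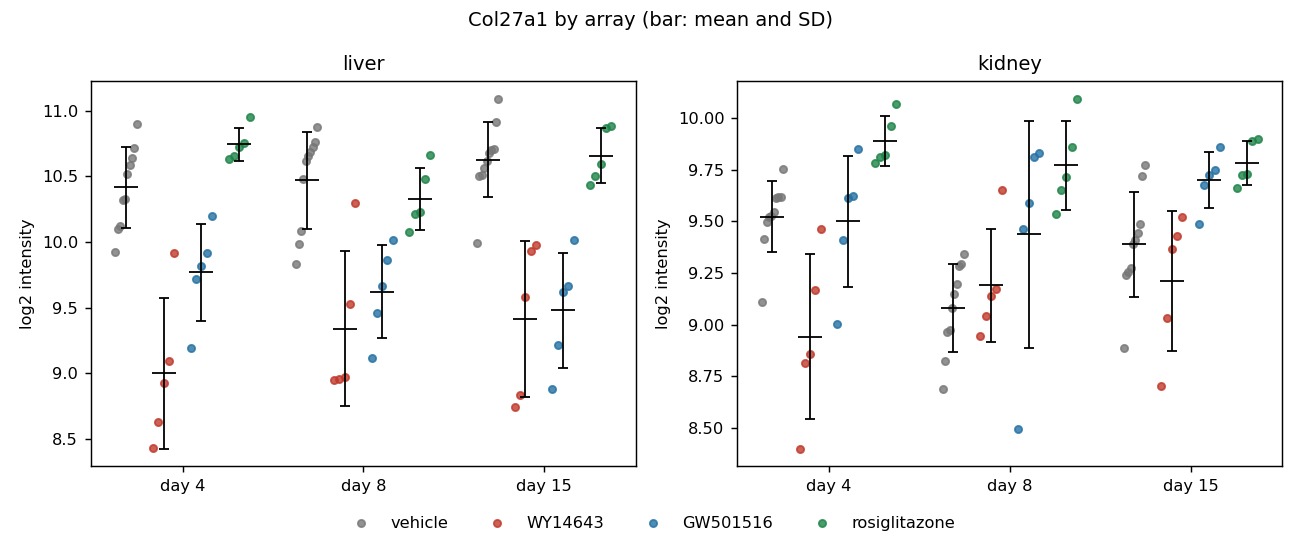
Col27a1 log2 intensity of each array in liver (left) and kidney (right) by day, with bars at the group mean and SD. In liver the WY14643 and GW501516 arrays sit below the vehicle medians on each day and the rosiglitazone arrays overlap vehicle. In kidney the rosiglitazone arrays, between 9.54 and 10.10, sit above the vehicle medians.

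Col5a3, the third chain of fibrillar type V collagen, was the collagen gene called most often, with 5 lower calls over 3 tissues. In heart the vehicle arrays themselves differed by day: they ranged over 7.16 to 8.10 on day 4 (median 7.89), 8.15 to 9.06 on day 8 (median 8.77) and 7.23 to 8.72 on day 15 (median 8.41). Rosiglitazone arrays read 7.25, 7.55, 7.58, 7.74 and 8.67 on day 4, 7.39, 7.55, 7.62, 7.76 and 7.80 on day 8, and 6.93, 7.11, 7.21, 7.44 and 7.95 on day 15. On day 4 the groups overlapped, on day 8 all 5 treated arrays lay below every vehicle array, and on day 15 3 of 5 did. GW501516 arrays read 7.68, 7.74, 7.94, 8.12 and 8.32 on day 4, 7.09, 7.54, 7.60, 7.91 and 8.01 on day 8, and 7.37, 7.65, 7.85, 7.89 and 7.96 on day 15. They were clear of vehicle on day 8 alone.

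Heart Col5a3 fell by 0.70 log2 with rosiglitazone (SE 0.104, adjusted p 9.33e-07, 14 of 15 mice below the same-day vehicle mean) and by 0.49 with GW501516 (SE 0.104, adjusted p 0.0011, 12 of 15). With WY14643 the arrays read 7.99, 8.32, 8.37, 8.69 and 8.92 on day 4, above the highest vehicle array in 4 of 5. They read 7.48, 7.75, 7.79, 8.00 and 8.03 on day 8, all below every vehicle array, and 7.38, 7.39, 7.45, 7.71 and 7.74 on day 15. The WY14643 effect thus went from above vehicle on day 4 to -0.89 on day 8 and -0.78 on day 15. The change of the response from day 4 to day 15 was -1.44 (SE 0.254, limma adjusted p 0.00196). This was the sole one of the 42 collagens to pass in heart with WY14643 (2.38%, against 0.275% of all genes). It was also the sole one of 504 such collagen tests over the 4 tissues and 3 compounds. Without heart WY14643 replicate 3 of day 15, or without rosiglitazone replicate 1 of day 4, 5 passed with WY14643 over the 4 tissues.

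In skeletal muscle Col5a3 vehicle arrays ranged over 6.89 to 7.83 on day 4 (median 7.47), 7.61 to 8.84 on day 8 (median 8.04) and 7.54 to 8.60 on day 15 (median 7.77). GW501516 arrays read 6.74, 6.98, 6.99, 7.04 and 7.28 on day 4, 6.95, 7.03, 7.22, 7.33 and 7.43 on day 8, and 6.88, 7.03, 7.42, 7.82 and 8.49 on day 15. Rosiglitazone arrays read 7.08, 7.12, 7.13, 7.26 and 7.75 on day 4, 6.85, 7.11, 7.26, 7.47 and 7.66 on day 8, and 6.64, 6.72, 7.26, 7.34 and 7.46 on day 15. The treated arrays cleared the vehicle range with GW501516 on day 8 and with rosiglitazone on day 15, and overlapped it on the other days. The mean change was -0.56 with GW501516 (SE 0.107, adjusted p 0.000918) and -0.59 with rosiglitazone (SE 0.107, adjusted p 0.000274), in 14 of 15 mice each. These were the sole collagen calls in skeletal muscle.

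Liver Col5a3 varied widely, with vehicle arrays over 6.99 to 9.57 on day 4 (median 8.10), 7.29 to 9.54 on day 8 (median 8.88) and 7.33 to 9.55 on day 15 (median 7.99). GW501516 arrays read 6.86, 6.90, 6.96, 7.91 and 8.55 on day 4, 6.83, 7.90, 8.17, 8.29 and 8.45 on day 8, and 6.19, 6.38, 6.995, 8.29 and 8.47 on day 15. They overlapped vehicle on each day, and the mean fell by 0.84 (SE 0.247, adjusted p 0.0126, 12 of 15 mice). In kidney the Col5a3 differences were -0.14, 0.01 and 0.07, with limma adjusted p of at least 0.746. The mean level there was dim, 3.03 in vehicle arrays beside array medians of 5.05 to 5.38, so a fall may go unseen. The second Col5a3 probe set was dim (mean 3.12 in liver, 3.73 in heart and 1.72 in skeletal muscle) and its differences in these 5 comparisons lay between -0.05 and 0.09, none called.

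**Figure D3:**
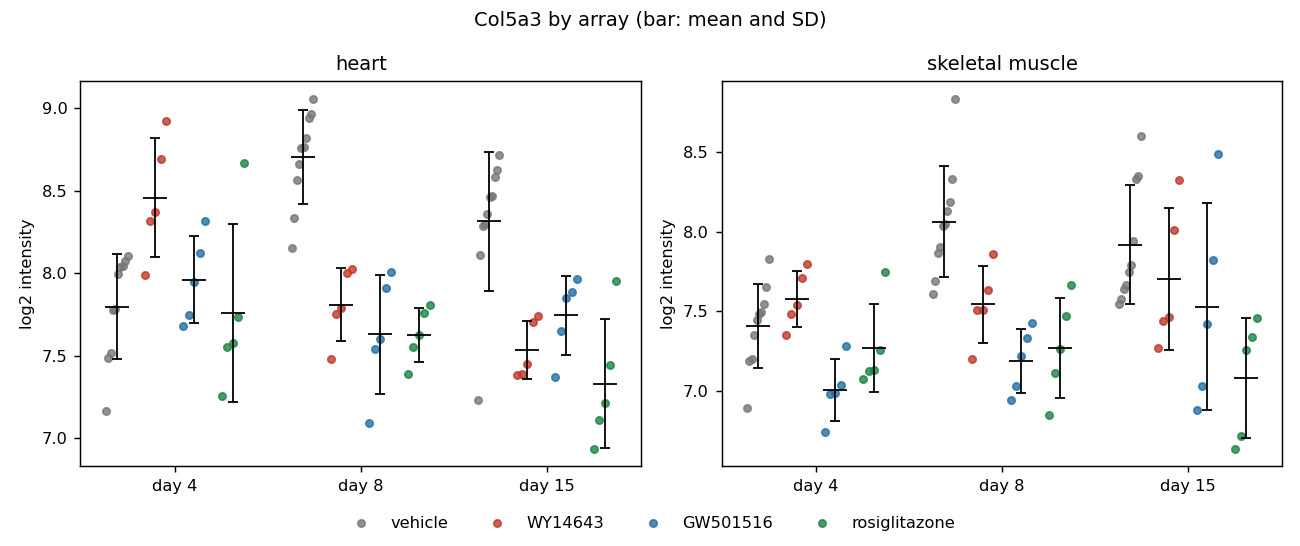
Col5a3 log2 intensity of each array in heart (left) and skeletal muscle (right) by day, with bars at the group mean and SD. Vehicle arrays are higher on day 8 than on day 4, by 0.91 in heart and 0.65 in skeletal muscle, and in heart every treated array lies below every vehicle array on day 8.

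In liver the 3 compounds called different numbers of collagen genes, all lower: 2 with WY14643, 4 with GW501516 and 7 with rosiglitazone, where 11.2%, 13.9% and 16.2% of all genes were called. The gene called with all 3 compounds was Col18a1, whose C-terminal fragment is endostatin. Its arrays ranged over 12.04 to 12.66 with vehicle against 11.87 to 12.39, 11.90 to 12.40 and 11.84 to 12.40 with WY14643, GW501516 and rosiglitazone. The groups overlapped, the shifts were small (-0.18, -0.22 and -0.20, adjusted p 0.00492, 0.000307 and 0.00103), and 14 of 15 mice lay below the vehicle mean with each compound. Its second probe set gave -0.12, -0.11 and -0.08, none called.

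Col15a1, the other multiplexin, fell in liver with GW501516 and rosiglitazone. Vehicle arrays ranged over 6.65 to 7.86 on day 4 (median 7.42), 6.58 to 8.14 on day 8 (median 7.64) and 7.11 to 8.13 on day 15 (median 7.42). GW501516 arrays read 6.43, 6.53, 6.54, 6.68 and 7.45 on day 4, 6.52, 6.72, 6.83, 7.09 and 8.09 on day 8, and 6.19, 6.50, 6.59, 6.66 and 6.78 on day 15. On day 15 all 5 lay below every vehicle array. The mean fell by 0.69 (SE 0.131, adjusted p 5.57e-05, 13 of 15 mice). With rosiglitazone the arrays read 6.74, 7.20, 7.35, 7.42 and 7.46 on day 4, 6.28, 6.61, 6.67, 6.87 and 7.13 on day 8, and 6.58, 6.59, 6.71, 7.03 and 7.15 on day 15, with a mean change of -0.55 (adjusted p 0.0014, 13 of 15). With WY14643 the difference was -0.16 (adjusted p 0.513), and WY14643 lay 0.53 above GW501516 (95% interval 0.23 to 0.83, adjusted p over the pairs 0.0149).

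The type IV chains Col4a1 and Col4a2, which pair in most basement membranes, fell together in liver with rosiglitazone. Col4a1 vehicle arrays ranged over 9.01 to 9.82 on day 4 (median 9.36), 9.32 to 10.24 on day 8 (median 9.83) and 9.28 to 10.12 on day 15 (median 9.62). Rosiglitazone arrays read 8.70, 8.97, 9.15, 9.43 and 9.46 on day 4, 8.50, 8.77, 8.90, 8.94 and 9.13 on day 8, and 8.57, 8.83, 8.95, 9.23 and 9.39 on day 15. All 5 lay below every vehicle array on day 8, 4 did on day 15 and 2 on day 4. Col4a1 changed by -0.60 (SE 0.11, adjusted p 3.04e-05) and Col4a2 by -0.46 (SE 0.103, adjusted p 0.000677), in 13 of 15 mice each. The second Col4a1 probe set gave -0.23 (adjusted p 0.119), and with clock components as covariates the estimate of the first was 0.0107. With WY14643 on day 4 Col4a1 instead read 9.14, 9.77, 10.03, 10.65 and 10.66, a rise of 0.69 (adjusted p 0.0154) on that day. That rise rests on few mice: 2 of the 5 liver arrays of that group are among the 11 that stood apart, and it was not called without them. WY14643 exceeded rosiglitazone by 0.77 for Col4a1 (adjusted p over the pairs 9.48e-06) and 0.61 for Col4a2 (0.000161), and GW501516 exceeded it by 0.48 for Col4a1 (0.00789).

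Col1a1, which encodes the major chain of type I collagen, was the most variable of the fixed panel in liver. Vehicle arrays ranged over 6.62 to 9.53 on day 4 (median 6.83), 7.53 to 9.90 on day 8 (median 8.46) and 7.30 to 8.79 on day 15 (median 7.66). Rosiglitazone arrays read 5.97, 6.05, 7.31, 7.38 and 8.78 on day 4, 6.40, 6.52, 6.82, 6.85 and 7.15 on day 8, and 6.16, 6.62, 7.29, 8.22 and 8.88 on day 15. The groups were separate on day 8 and overlapped on days 4 and 15, where 1 treated array exceeded the highest vehicle array on day 15. The mean change was -0.85 (SE 0.27, adjusted p 0.0208) with 10 of 15 mice below vehicle, and the call was lost when any of 3 rosiglitazone arrays was left out (adjusted p up to 0.0571). The second Col1a1 probe set gave -0.32 (adjusted p 0.284). Its partner chain Col1a2 gave -0.17 (adjusted p 0.389), and Col3a1 of type III collagen gave -0.36 (0.135). Col5a1 of type V fell by 0.32 (adjusted p 0.0145), and the vessel-wall network collagen Col8a1 by 0.51 (0.00665). The Col8a1 probe set was dim in liver, at a mean of 4.47 beside array medians of 6.12 to 6.26, and the 2 others of the gene, at 5.86 and 3.38, gave -0.04 (0.721) and -0.03 (0.844). Col1a1 was 1.31 higher with WY14643 than with rosiglitazone (95% interval 0.69 to 1.94, adjusted p over the pairs 0.00259).

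In heart no collagen was called with WY14643 over the 3 days (1.44% of all genes), 1 with GW501516 (4.17%) and 5 with rosiglitazone (7.51%). With WY14643 11 of 42 had an unadjusted p under 0.05 in limma. The share of all genes under that unadjusted threshold was not counted, so the 11 have no background beside them. Besides Col5a3 the rosiglitazone calls were Col1a1, Col3a1, Col4a1 and Col6a1, a chain of the beaded filaments that link muscle cells to their matrix. Heart Col1a1 ranged over 11.67 to 12.42 with vehicle on day 4 (median 12.11), 11.79 to 12.73 on day 8 (median 12.52) and 11.44 to 12.60 on day 15 (median 12.28). Rosiglitazone arrays read 11.42, 11.73, 11.96, 12.16 and 13.36 on day 4, 11.19, 11.55, 11.64, 12.04 and 12.07 on day 8, and 10.79, 11.29, 11.70, 11.81 and 11.95 on day 15. The groups overlapped each day, and the array at 13.36 was the heart array that stood farthest apart. Col1a1 fell by 0.46 (SE 0.109, adjusted p 0.00256, 13 of 15 mice), Col4a1 by 0.28 (0.00175, 12), Col3a1 by 0.27 (0.0184, 14) and Col6a1 by 0.22 (0.0471, 14). With clock components as covariates the estimates of Col1a1, Col3a1, Col4a1 and Col6a1 were 0.28, 0.25, 0.0006 and 0.29 and that of Col5a3 with rosiglitazone -0.06, none called. The second Col1a1 probe set gave -0.14 (adjusted p 0.563), and the mean of the gene's probe sets -0.30 (0.076). The Col6a1 call was lost in 28 of 45 fits with 1 array left out, and the Col3a1 call in 2.

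The heart array that stands apart weighs on these counts. Without it 10 collagens were called with rosiglitazone, and without all arrays that stood apart 11, all lower, against 8.76% of all genes. The 6 added then were Col15a1 (-0.32), Col4a2 (-0.21), Col5a1 (-0.25), Col5a2 (-0.35), Col6a2 (-0.28) and Col6a3 (-0.33). With WY14643 the heart collagens were called by day as follows. On days 4, 8 and 15 0, 1 and 6 passed (0.253%, 0.434% and 3.37% of all genes), all lower. On day 15 these were Col5a3 (-0.78), Col1a1 (-0.65), Col4a4 (-0.63), Col5a1 (-0.49), Col6a1 (-0.44) and Col4a2 (-0.38). Over the 4 tissues the 7 WY14643 calls of day 15 became 1 without a single heart array of that group, replicate 4, and 11 without replicate 3, so this count rests on single arrays.

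In kidney 1 collagen was called with WY14643 (1.74% of all genes), 2 with GW501516 (6.79%) and 3 with rosiglitazone (1.52%). Single arrays moved these counts: the GW501516 count was 1 without GW501516 replicate 5 of day 15 and 4 without replicate 1 of day 8. The rosiglitazone count was 1 without rosiglitazone replicate 4 of day 15, replicate 2 of day 4 or replicate 2 of day 8, and 5 without GW501516 replicate 1 of day 8, vehicle replicate 1 of day 4 or vehicle replicate 7 of day 8. The WY14643 call was Col19a1, a fibril-associated collagen of basement membrane zones. Its vehicle arrays ranged over 5.29 to 6.76 on day 4 (median 6.14), 5.56 to 6.96 on day 8 (median 6.39) and 5.58 to 6.65 on day 15 (median 6.33). WY14643 arrays read 4.39, 5.67, 5.71, 5.83 and 6.07 on day 4, 5.38, 5.54, 5.73, 6.04 and 6.32 on day 8, and 4.81, 5.20, 5.29, 5.94 and 6.52 on day 15. The groups overlapped, with 14 of 15 treated mice below the vehicle mean, a change of -0.62 (SE 0.132, adjusted p 0.00218) and a difference from rosiglitazone of -0.73 (adjusted p over the pairs 0.00282). Of its 2 further probe sets 1 was called too (-0.60, adjusted p 0.0385).

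GW501516 lowered Col4a3 and Col4a4, chains of the type IV network of the glomerular basement membrane. Kidney Col4a3 ranged over 10.38 to 11.14 in vehicle arrays, and on day 8 GW501516 arrays read 9.46, 10.35, 10.44, 10.63 and 10.76. Kidney Col4a4 ranged over 10.59 to 11.06 in vehicle arrays, and on day 8 the treated arrays read 8.45, 10.71, 10.74, 10.75 and 10.77. The array at 9.46 and 8.45 is the kidney array that stood farthest apart. The mean changes were -0.25 (adjusted p 0.0152) and -0.30 (0.0254), and without the arrays that stood apart -0.18 (0.0479) and -0.14 (0.0125). Rosiglitazone lowered kidney Col18a1 by 0.23 (adjusted p 0.0454) and Col4a1 by 0.22 (0.0242), in 13 of 15 mice each. The second probe sets of Col18a1 and Col4a1 gave -0.10 (limma adjusted p 0.699) and -0.08 (0.976), neither called. The Col18a1 call was lost in 26 of 45 fits with 1 array left out and the Col4a1 call in 3.

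In skeletal muscle 0, 1 and 1 collagens were called with WY14643, GW501516 and rosiglitazone (0.104%, 0.857% and 1.65% of all genes). For WY14643, 2 had an unadjusted p under 0.05 in limma, and the share of all genes under that threshold was not counted. Most estimates were nonetheless below vehicle: 34, 32 and 33 of the 42 genes, with medians of -0.12, -0.07 and -0.16 beside all-gene medians of -0.01, 0.00 and 0.00. The largest estimate that missed the threshold was Col14a1 with rosiglitazone, -0.61 (adjusted p 0.115), a fibril-associated collagen of tendon and muscle.

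Fibrillar and type IV chains were set side by side by counts and medians, since members are not replicates. Fibrillar genes had 12 calls in 132 tests, 11 lower and 1 higher, and type IV genes 6 calls in 72 tests, all lower. The 2 multiplexins added 6 lower calls in 24 tests, and the remaining 23 genes had 3 lower calls in 276. The classes also differ in brightness: Col15a1 and Col18a1 averaged 8.21 and 8.86 over all arrays. The remaining genes ran from 2.40 (Col6a5) to 8.86 (Col6a1), many of them dim. These counts are therefore no measure of a difference in response between classes. Of all tests over the 12 comparisons 5.59% were called, 2.93% lower. The fibrillar median ran from -0.23 to 0.01 over the 12 comparisons and was below 0 in 11. The type IV median ran from -0.22 to 0.07 and was below 0 in 10. In liver with rosiglitazone the medians were -0.17 for fibrillar and -0.22 for type IV genes beside -0.02 for all genes. In skeletal muscle they were -0.23 and -0.18 with rosiglitazone, -0.07 and -0.18 with GW501516, and -0.19 and -0.02 with WY14643. In heart with rosiglitazone they were -0.05 and -0.08.

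**Figure D4:**
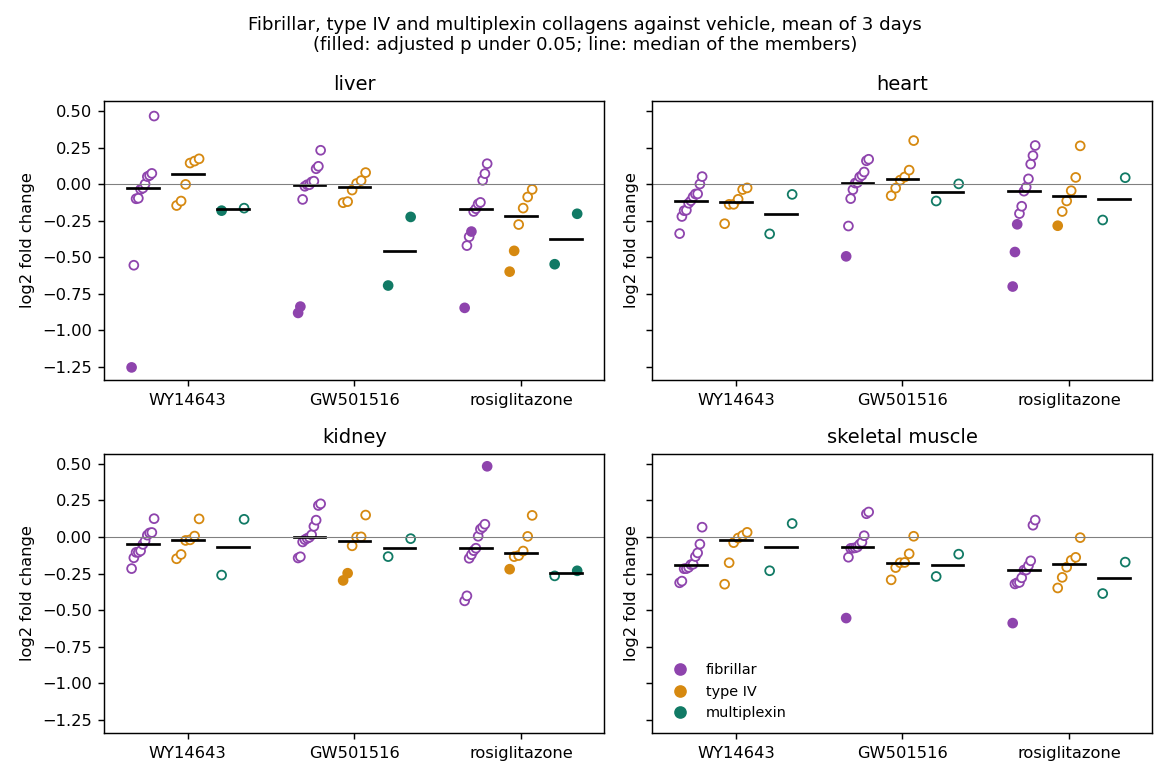
Log2 fold change against vehicle (mean of 3 days) of the fibrillar, type IV and multiplexin genes by tissue and compound; each point is 1 gene, filled where the adjusted p is under 0.05, and the line is the median. Fibrillar genes span the widest range, from -1.25 to 0.48 among the called genes, and both multiplexins lie below 0 in liver with each compound.

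In 3 of the 5 pairs of collagen genes compared array by array, Col4a1 with Col4a2, Col6a1 with Col6a2 and Col1a1 with Col1a2, the genes varied together in all 4 tissues. After the group means were removed, Col4a1 and Col4a2 correlated over the 75 arrays of a tissue with r = 0.84 in liver, 0.95 in heart, 0.61 in kidney and 0.94 in skeletal muscle (Spearman's rho 0.84, 0.94, 0.81 and 0.92). Col4a2 was the closest of 18192 genes to Col4a1 in 3 tissues and ranked 4 in kidney. Their start sites lie 21 bases apart on opposite strands, by the RefSeq promoter table. Col6a1 and Col6a2 gave r = 0.82, 0.95, 0.78 and 0.94, and Col1a1 and Col1a2 gave 0.86, 0.78, 0.66 and 0.88. Each of these 12 values has the smallest p that 100000 permutations can give (1e-05, 1.33e-05 after adjustment over 20 relations), and without the 2 farthest arrays they lay between 0.56 and 0.94.

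The other type IV pairs differed more between tissues. Col4a3 and Col4a4 gave r = 0.83 in heart, 0.54 in skeletal muscle, 0.57 in kidney and -0.10 in liver (permutation p 0.397). Among 18192 genes Col4a4 ranked 1 by closeness to Col4a3 in heart, 2 in skeletal muscle, 168 in kidney and 14345 in liver. The kidney value fell to 0.26 without the 2 farthest arrays. Col4a5 and Col4a6, the X-linked pair, gave 0.12, 0.34, 0.12 and 0.54 in liver, heart, kidney and skeletal muscle. All arrays of a tissue share the deposited normalization, and the correlation is a description of these arrays.

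Most collagen calls by day fell on days 8 and 15. Over the 12 comparisons of a day 2 of 504 tests were called on day 4 (1 lower), 28 on day 8 (27 lower) and 17 on day 15 (16 lower), against 1.12%, 3.84% and 1.68% of all genes. The largest day was liver with rosiglitazone on day 8, where 11 collagens were called, all lower (12.8% of all genes were called). The 6 with the largest changes were Col1a1 (-1.86), Col8a1 (-1.14), Col4a1 (-0.93), Col3a1 (-0.81), Col15a1 (-0.79) and Col4a4 (-0.73), and the other 5 ran from -0.68 to -0.24. On days 4 and 15 the counts there were 0 (1.23%) and 4 (5.34%). Calls of GW501516 in liver were 0, 3 and 2 on days 4, 8 and 15 (1.35%, 8.83% and 4.42%), and those of WY14643 were 2, 2 and 1 (6.45%, 6.32% and 2.86%). Kidney Col26a1 with GW501516 on day 15 (0.46, adjusted p 0.046) and Col27a1 with rosiglitazone on day 8 (0.69) were the higher calls besides Col4a1 in liver. The Col26a1 probe set was dim, with a mean of 3.69 over the 300 arrays beside kidney array medians of 5.05 to 5.38.

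The vehicle mice changed between days too. From day 4 to day 8 6 collagen tests were called over the 4 tissues, against 2.8% of all genes. Liver Col1a1 rose by 1.31 (adjusted p 0.0197), Col8a1 by 0.78 (0.00718) and Col5a1 by 0.48 (0.0188), while Col25a1 changed by -0.28 (0.0133). Col5a3 rose by 0.91 in heart (4.78e-05) and 0.65 in skeletal muscle (0.0358). Without liver vehicle replicate 9 of day 8 the count was 11. From day 4 to day 15 none was called (limma; 1.33% of all genes). Arntl, the core clock gene also called Bmal1, differed the same way: in liver the vehicle mean was 5.67 on day 4, 8.14 on day 8 and 7.36 on day 15. Heart read 7.65, 9.45 and 8.98 on the same days, and skeletal muscle 6.28, 7.62 and 7.11. The labels do not give the hour of tissue collection.

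Clock genes also differed between treated and vehicle mice, so their values stand beside the collagen changes. Of 17 clock genes 13 were called in liver with rosiglitazone, 12 with GW501516 and 2 with WY14643, and Arntl changed by -1.52 and -1.70 with the first pair. In heart 11 were called with rosiglitazone and 10 with GW501516. With 2 components of the clock genes as covariates 9 collagen tests were called, 7 lower and 2 higher, and of the 27 reported calls 6 were kept, 16 lost the threshold and 5 changed sign. Those kept were Col27a1 in liver with WY14643 (-1.28) and GW501516 (-1.14), Col18a1 in liver with WY14643 (-0.18), Col19a1 in kidney with WY14643 (-0.64), and Col4a3 (-0.27) and Col4a4 (-0.42) in kidney with GW501516. Over the 12 comparisons 3.21% of all genes were called with these covariates, where 5.59% had been. The share fell in 7 comparisons, to 0.132% from 16.2% in liver with rosiglitazone, and rose in 5, to 12.7% from 6.79% in kidney with GW501516. Clock state and compound vary together in these mice, so where the covariates take up an effect the share of each cannot be told apart.

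**Figure D5:**
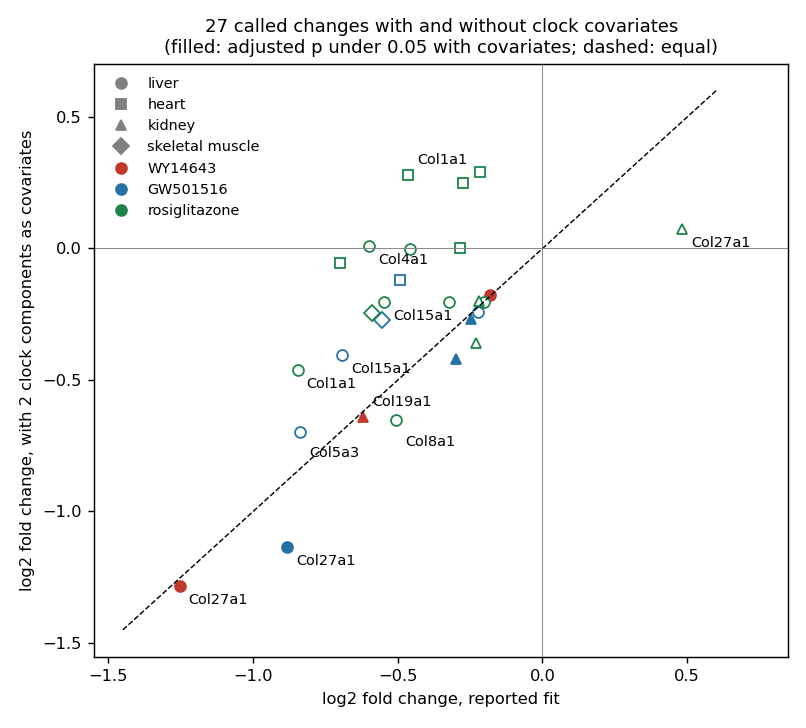
The 27 called collagen changes without (horizontal) and with (vertical) 2 clock components as covariates, both in log2 units; shape gives the tissue, colour the compound, and filled points keep an adjusted p under 0.05. The liver Col27a1 point of WY14643 stays near the dashed line of equality (-1.25 without and -1.28 with covariates). That of GW501516 moves from -0.88 to -1.14, and the heart points of rosiglitazone move to between -0.06 and 0.29.

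Without day 8, 12 calls were made, 10 lower, and 9 of the 27 were kept. Of all tests 2.62% were called in these fits, beside 5.59% with day 8 (with rosiglitazone 8.48% in liver and 1.15% in heart). Liver Col27a1 then gave -1.32 with WY14643 and -0.90 with GW501516, and liver Col15a1 gave -0.82 with GW501516. Liver Col4a1 with rosiglitazone gave -0.43 (adjusted p 0.0357), heart Col5a3 with rosiglitazone -0.51 (0.0449) and kidney Col27a1 with rosiglitazone 0.38 (0.0466). The calls of Col5a3 in skeletal muscle and of Col1a1 in liver (-0.34, adjusted p 0.601) were lost.

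Differences between compounds were tested for the 3 pairs in each tissue. WY14643 and rosiglitazone differed in 9 collagen tests (6.42% of all genes), WY14643 and GW501516 in 4 (2.37%), and GW501516 and rosiglitazone in 2 (1.2%). The last count was 5 without heart rosiglitazone replicate 1 of day 4, and the count of 4 fell to 2 without any of 10 single heart arrays. Besides those above, kidney Col18a1 was 0.35 higher with WY14643 than with rosiglitazone (adjusted p over the pairs 0.00313). In heart Col8a1 was 0.40 lower with WY14643 than with GW501516 (0.0402), while Col4a4 (-0.32) between the same compounds, and Col27a1 (-0.38) and Col8a1 (-0.36) between WY14643 and rosiglitazone, passed within their pair but not over the 3 pairs (0.0532, 0.0672 and 0.0769). In skeletal muscle no pair was called for any collagen.

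Genes that fold, cross-link and remove collagen were read from fixed lists. Of 18 genes for prolyl and lysyl hydroxylation and folding, liver called 1 higher and 5 lower with GW501516, among them P4ha1 (-0.37), the catalytic subunit of prolyl 4-hydroxylase, and Plod1 (-0.19), a lysyl hydroxylase, with Mia3 higher (0.27), which loads procollagen for export. With rosiglitazone the collagen chaperone Serpinh1 was lower in liver (-0.35) and heart (-0.20), as was the lysyl oxidase family gene Loxl1 (-0.51 and -0.44). In the same liver comparison P4ha2 (0.29), another prolyl 4-hydroxylase subunit, Mia3 (0.13) and the procollagen peptidase gene Adamts3 (0.54) were higher. In kidney the lysyl hydroxylase Plod2 was lower with all 3 compounds (-0.39, -0.49 and -0.39). Over the 12 comparisons the folding list had 5 higher and 12 lower calls in 216 tests, and the list of propeptide cleavage and cross-linking 2 higher and 6 lower in 132. Fibril-associated matrix genes had 1 higher and 2 lower calls in 168, and collagen receptors 1 lower in 96. These counts, and those of the lists that follow, stand beside 5.59% of all tests called, 2.93% lower.

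Among 14 genes of breakdown and its inhibitors, Timp4, an inhibitor of matrix metalloproteinases, was higher in heart (0.64, 0.59 and 0.83 with WY14643, GW501516 and rosiglitazone) and in skeletal muscle (0.70, 0.69 and 0.93). Timp4 was also higher in kidney with GW501516 (0.63). Timp3 was higher with rosiglitazone in liver (0.55) and heart (0.42), and with GW501516 in heart (0.37). Mmp2, a gelatinase, was lower in liver with rosiglitazone (-0.45) and the membrane collagenase Mmp14 in heart (-0.37). Over the 12 comparisons this list had 12 higher and 6 lower calls in 168 tests.

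The laminins and other basement membrane genes, 15 in all, had 3 higher and 12 lower calls in 180 tests. In liver with WY14643 the laminin chain Lamb3 rose by 1.88 (adjusted p 1.39e-23) and Npnt by 0.77, while Lama3 changed by -0.90 and Lamb2 by -0.16. With rosiglitazone 3 were lower (Lamb1 -0.26, Agrn -0.17 and the perlecan gene Hspg2 -0.13) and none was higher. Of 12 genes of the TGF-beta axis, which drives collagen synthesis in many settings, 12 of 144 tests were called and all were lower. Smad3 was lower in heart with all 3 compounds (-0.14, -0.29 and -0.32) and in liver with GW501516 (-0.21) and rosiglitazone (-0.25), and Ccn2 in liver with GW501516 (-0.46).

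Some markers of collagen-making cells were called in liver, where 11.2%, 13.9% and 16.2% of all genes were (WY14643, GW501516 and rosiglitazone). With lists this short, the fibroblast and endothelial counts below do not stand apart from those shares. Of 8 mural and stellate cell markers 4 were lower with GW501516 (Lrat -0.38, Pdgfrb -0.28, Notch3 -0.25 and Des -0.16) and 3 with rosiglitazone (Pdgfrb -0.31, Notch3 -0.25 and Des -0.18), with 1 lower with WY14643. Their mean ran from 8.14 to 8.77 over the vehicle arrays, 8.07 to 8.59 with WY14643, 8.04 to 8.49 with GW501516 and 8.11 to 8.48 with rosiglitazone. Of 10 fibroblast markers 2, 1 and 1 were lower in liver with WY14643, GW501516 and rosiglitazone, and of 8 endothelial markers 1, 0 and 2. Their means ran from 6.93 to 7.66 and from 8.03 to 8.69 over the vehicle arrays, and from 6.998 to 7.35 and 8.21 to 8.63 with rosiglitazone. In heart with rosiglitazone 1 of 10 fibroblast and 0 of 8 mural markers were lower, and 1 endothelial marker was lower and 1 higher. In kidney and skeletal muscle none of these 3 lists had a call with rosiglitazone. Neutrophil markers were higher in liver with WY14643, 4 of 5. The part of these markers in the collagen results was not tested.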

How the data were processed

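RNA from each tissue was amplified and labelled with NuGEN kits from 100 ng of RNA and hybridised to 1 array per sample, per the labels' protocols. The authors deposited log2 intensities, for which the submitters' processing notes name RMA and Partek; their versions, and which arrays were normalized together, are not given in the sources used here. Of 45101 probe sets, 34945 named 1 gene, 932 several and 9160 none, and 64 control probe sets were left out. The probe set with the highest mean stood for each of 18193 genes.

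Each tissue was fitted in limma 3.58.1 (R 4.3.3) with 12 group means and 63 residual degrees of freedom, eBayes with a trend, two-sided tests and Benjamini-Hochberg adjustment over all genes, called under 0.05. Contrasts between compounds were also adjusted over the 3 pairs jointly, and tissues were compared within mice. Replicates are separate mice, and the scripts were tested on simulated data. The number of arrays limits the precision. Genes named are, per tissue and compound, at most 8 called collagens per direction, a panel of 8 genes (Col1a1, Col1a2, Col3a1, Col4a1, Col4a2, Col6a1, Col15a1 and Col18a1), at most 6 for other contrasts, and at most 4 called genes per pathway list. The members, lists and rule were chosen with earlier results of these data known.

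Alternatives were the replicate block, quantile normalization, the mean of probe sets, a filter at the 40th percentile, array weights, clock components of 17 genes or cell type markers as covariates, leaving out day 8 and leaving out each array. Leaving out the arrays that stand apart was added after seeing the data. Promoter windows came from RefSeq (GRCm38.p6).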

Additional observations from a re-analysis of the deposited data

Results flagged for a closer look

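Among 120 groups of arrays of the genes shown by array, 10 held an array far from the rest by Dixon's test, and chance marks about 1 in 20 groups. Col27a1 in kidney read 8.49 in replicate 1 of GW501516 on day 8 (nearest array 9.46) and 9.11 in vehicle replicate 3 on day 4 (9.42). Col5a3 read 7.23 in heart vehicle replicate 8 on day 15 (8.11), 7.75 in skeletal muscle rosiglitazone replicate 5 on day 4 (7.26) and 8.86 in liver rosiglitazone replicate 1 on day 15 (7.25). Col1a1 read 9.53 in liver vehicle replicate 5 on day 4 (7.83) and 11.79 in heart vehicle replicate 5 on day 8 (12.37). Col4a1 read 9.89 in liver WY14643 replicate 1 on day 8 (9.47), Col15a1 read 7.45 in liver GW501516 replicate 2 on day 4 (6.68) and Col19a1 read 4.39 in kidney WY14643 replicate 2 on day 4 (5.67). The first and last of these arrays are among the 11 that stood apart over all genes.

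The same compound gave different responses in 2 tissues in 24 of 756 collagen tests (3.17%, against 4.17% of all genes), 20 of them lower in the first tissue named. For liver minus heart they were Col27a1 with WY14643 (-1.14) and GW501516 (-1.04), Col15a1 with GW501516 (-0.58), Col8a1 with GW501516 (-0.52) and rosiglitazone (-0.65), and Col20a1 with GW501516 (-0.24) and rosiglitazone (-0.22). For liver minus kidney they were Col27a1 with WY14643 (-1.04), GW501516 (-1.10) and rosiglitazone (-0.41), Col18a1 with WY14643 (-0.30), Col15a1 (-0.56) and Col5a3 (-0.85) with GW501516, and Col4a1 (-0.38) and Col4a2 (-0.33) with rosiglitazone. For liver minus skeletal muscle they were Col27a1 with WY14643 (-1.32) and GW501516 (-0.89) and Col4a1 with rosiglitazone (-0.39). For heart minus kidney they were Col19a1 with WY14643 (0.68) and GW501516 (0.51) and Col5a3 with GW501516 (-0.51) and rosiglitazone (-0.77). For kidney minus skeletal muscle they were Col5a3 with GW501516 (0.57) and rosiglitazone (0.66). In kidney Col5a3 lay at 3.03 in vehicle arrays, below the array medians of 5.05 to 5.38. A fall there may go unseen, so these differences from kidney are no measure of a weaker response. The heart response of Col5a3 to WY14643 on day 15 minus that on day 4 was -1.44.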

How the results depend on the processing

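Of the 27 calls, all 27 were kept with array weights, with cell type markers as covariates and without the arrays that stand apart. The filter on dim genes kept 26 and left Col8a1 untested, quantile normalization kept 26, the mean of probe sets 23, the replicate block 23, no day 8 9 and the clock components 6. The calls that the mean of probe sets ended were Col1a1 in liver (-0.58, adjusted p 0.0631) and heart (-0.30, 0.076) and Col18a1 (0.184) and Col4a1 (0.368) in kidney with rosiglitazone. With clock components Col4a1 in liver (0.0107) and Col1a1 (0.28), Col3a1 (0.25), Col4a1 (0.0006) and Col6a1 (0.29) in heart changed sign with rosiglitazone, none of them called. Where the covariates or fewer samples do not show it, the cause was not tested.

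Replicate numbers mark different mice. Deviations of same-numbered arrays had median correlations of 0.002, -0.005, 0.003 and 0.047 in liver, heart, kidney and skeletal muscle. For arrays of other numbers the medians were -0.002, 0.004, -0.003 and -0.004, so skeletal muscle alone stood somewhat apart. In the same order, 7, 2, 7 and 10 of 75 arrays correlated best with their own number. With the replicate block the calls were 40 in all, with 1 in heart with WY14643 (0 before), 0 in kidney with GW501516 (2), and 3 and 11 in skeletal muscle with GW501516 (1) and rosiglitazone (1). By day it gave 8 with WY14643 on day 4 (2) and 1 with GW501516 on day 4 (0), and 4 for the day 15 minus day 4 response to WY14643 (1).

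Other counts by comparison with vehicle, with the reported count in brackets, were as follows. Heart with WY14643 [0] gave 2 with quantile normalization and 1 each with the dim filter, array weights and cell type markers. With array weights heart gave 2 with GW501516 [1] and 12 with rosiglitazone [5], kidney 2, 5 and 6 with WY14643 [1], GW501516 [2] and rosiglitazone [3], and skeletal muscle 2 with rosiglitazone [1]. With clock components liver gave 1 with GW501516 [4] and 0 with rosiglitazone [7], heart 0 with GW501516 and 2 with rosiglitazone, kidney 2 with WY14643 and 0 with rosiglitazone, and skeletal muscle 0 with both. Without day 8 liver gave 1 with WY14643 [2] and 3 with rosiglitazone, heart 0 with GW501516 and 1 with rosiglitazone, kidney 2, 1 and 1, and skeletal muscle 0 with both. Without the arrays that stand apart heart gave 11 with rosiglitazone and kidney 2, 4 and 5.

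By day over the 4 tissues, WY14643 on day 4 [2] gave 4 with quantile normalization, 4 with the mean of probe sets, 5 with the dim filter, 0 with clock components and 1 with cell type markers. WY14643 on day 8 [3] gave 8 with array weights, 1 with clock components and 5 without the arrays that stand apart, and on day 15 [7] 15, 1 and 12, with 3 for the mean of probe sets. With array weights GW501516 gave 1, 13 and 6 on days 4, 8 and 15 [0, 8 and 3] and rosiglitazone 1, 29 and 11 [0, 17 and 7]. With clock components GW501516 on day 15 gave 1 and rosiglitazone 9, 0 and 0. GW501516 on day 15 gave 5 without the arrays that stand apart, and rosiglitazone on day 15 gave 3 with the mean of probe sets.

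WY14643 minus GW501516 [4] gave 2 with the mean of probe sets and 1 with clock components, WY14643 minus rosiglitazone [9] gave 4 with clock components, and GW501516 minus rosiglitazone [2] gave 1, 11, 1 and 7 with the mean of probe sets, array weights, clock components and no arrays that stand apart. Vehicle day 8 minus day 4 [6] gave 14 with array weights, 0 with clock components and 13 without those arrays, and day 15 minus day 4 [0] gave 1 with the mean of probe sets, 2 with array weights and 3 without those arrays. The day 15 minus day 4 response to WY14643 gave 4 with the dim filter, 13 with array weights, 4 with cell type markers and 10 without those arrays. Differences between tissues fell to 5 with GW501516 [11] and 1 with rosiglitazone [8] without day 8, and to 5 with rosiglitazone with cell type markers.

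With 1 array left out at a time, the count ran from 0 to 2 in heart with WY14643 (2 without rosiglitazone day 4 replicate 1 or vehicle day 8 replicate 5) and from 3 to 10 with rosiglitazone (3 without rosiglitazone day 15 replicate 4 or day 8 replicate 2, and 10 without day 4 replicate 1). It ran from 1 to 4 in kidney with GW501516 (1 without GW501516 day 15 replicate 5 and 4 without day 8 replicate 1), from 1 to 5 with rosiglitazone (1 without rosiglitazone day 15 replicate 4, day 4 replicate 2 or day 8 replicate 2) and from 1 to 2 in skeletal muscle with rosiglitazone (2 without rosiglitazone day 15 replicate 1). By day it ran from 1 to 5, 2 to 5 and 1 to 11 with WY14643 on days 4, 8 and 15 (1 on day 4 without liver replicate 5, and 5 without liver replicate 3 or skeletal muscle replicate 1), and from 0 to 1 and 4 to 9 with rosiglitazone on days 4 and 15 (4 without any of liver day 15 replicates 2, 3, 4 and 5). It ran from 2 to 5 for WY14643 minus GW501516, 2 to 5 for GW501516 minus rosiglitazone, 5 to 11 for vehicle day 8 minus day 4, 0 to 2 for day 15 minus day 4, 1 to 5 for the day 15 minus day 4 response to WY14643 and 5 to 10 for rosiglitazone between tissues.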
